A study of Homo sapiens with 6 samples.

Results

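The receptors and binding proteins of the insulin-like growth factors (IGFs) were read out in the hepatocellular carcinoma line Huh7, an established human line, with and without forced expression of the LIM-homeodomain transcription factor LHX2. The set was taken by gene symbol and held 10 genes of the 28265 in the count table: the receptor genes INSR, IGF1R and IGF2R and the binding protein genes IGFBP1 to IGFBP7. In 3 libraries (LHX2) the cells had received lentiviral particles carrying an LHX2 expression vector. In 3 further libraries (CTRL) they had received a control vector, although the modification label of these samples calls them parental cells. All cells were grown in serum-containing medium with high glucose and were harvested 48 h after transduction. The labels name a single cell line and neither the promoter of the vector nor separate cultures, so the p-values cover the spread among libraries alone, and that spread may be technical.

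IGF1 and IGF2 act on cells through IGF1R, a receptor tyrosine kinase closely related to the insulin receptor INSR, which also binds IGF2. IGF2R, the cation-independent mannose 6-phosphate receptor, has no kinase: it carries IGF2 and mannose 6-phosphate-tagged enzymes to the lysosome. The IGFBPs are secreted proteins that bind IGFs, prolong their life in the circulation and hold them away from the receptors. Liver is the main source of circulating IGF1 and makes several IGFBPs, among them IGFBP1, whose transcription insulin represses.

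Counts per library summed to between 30029313 and 39653681. LHX2 had 1 to 2 counts in the CTRL libraries and 2427 to 3126 in the LHX2 libraries, as the labels have it. Hepatocyte markers (10 of 10 tested, led by AFP, ALB and APOB) summed to 49141 to 50516 CPM (read counts per library total, scaled by edgeR's TMM factors) in CTRL and 45764 to 50173 in LHX2, with 3 called lower (SERPINA1, HNF4A and TTR) and 1 higher (TF). Of 10 stromal markers 6 had a mean under 1 CPM and THY1 was at 0 in every library, while the summed level was 40.9 to 44.8 CPM in CTRL and 72.9 to 79.0 in LHX2, most of it COL1A2, PDGFRA and LUM, which were the 3 called higher of 4 tested. Endothelial markers summed to 3.75 to 4.31 CPM in CTRL and 2.78 to 3.22 in LHX2, with CDH5, KDR, TEK, CLEC4G and ERG at 0, and the 1 marker tested, PECAM1, was called lower. Blood cell markers, led by LYZ and CD68, summed to 471 to 500.3 CPM in CTRL and 612 to 678 in LHX2, with both of these called higher of 3 tested and CD3E, CSF1R, HBB and NKG7 at 0. Over all genes tested 16.6% were called higher and 15.8% lower. The part of these markers in the results was not tested.

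Receptor transcripts were abundant and differed by less than 1.2-fold, and most of the binding protein transcripts were scarce. After removal of genes with low counts 14533 genes were tested, and they included 6 of the 10 members: the 3 receptors, IGFBP3, IGFBP4 and IGFBP6. In the edgeR quasi-likelihood test at a Benjamini-Hochberg adjusted p under 0.05, INSR and IGFBP4 rose, no member fell and 4 did not pass. At an unadjusted p under 0.05 in edgeR 5 members passed, INSR, IGFBP4, IGF1R and IGF2R higher and IGFBP3 lower. The share of all genes at that unadjusted threshold was not taken. It cannot be below the 32.5% that passed after adjustment, and the count is not read as a result about the members. DESeq2 called no member lower. Over all genes tested 32.5% passed at the adjusted threshold, with 16.6% higher and 15.8% lower, so that 2 of 6 members is close to the share over all genes. The median log2 fold change of the 6 members was 0.15 and that of all genes 0.01. The groups did not overlap in 3 of the 6, INSR, IGF1R and IGFBP4, against 44.9% of all genes tested.

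**Figure D1:**
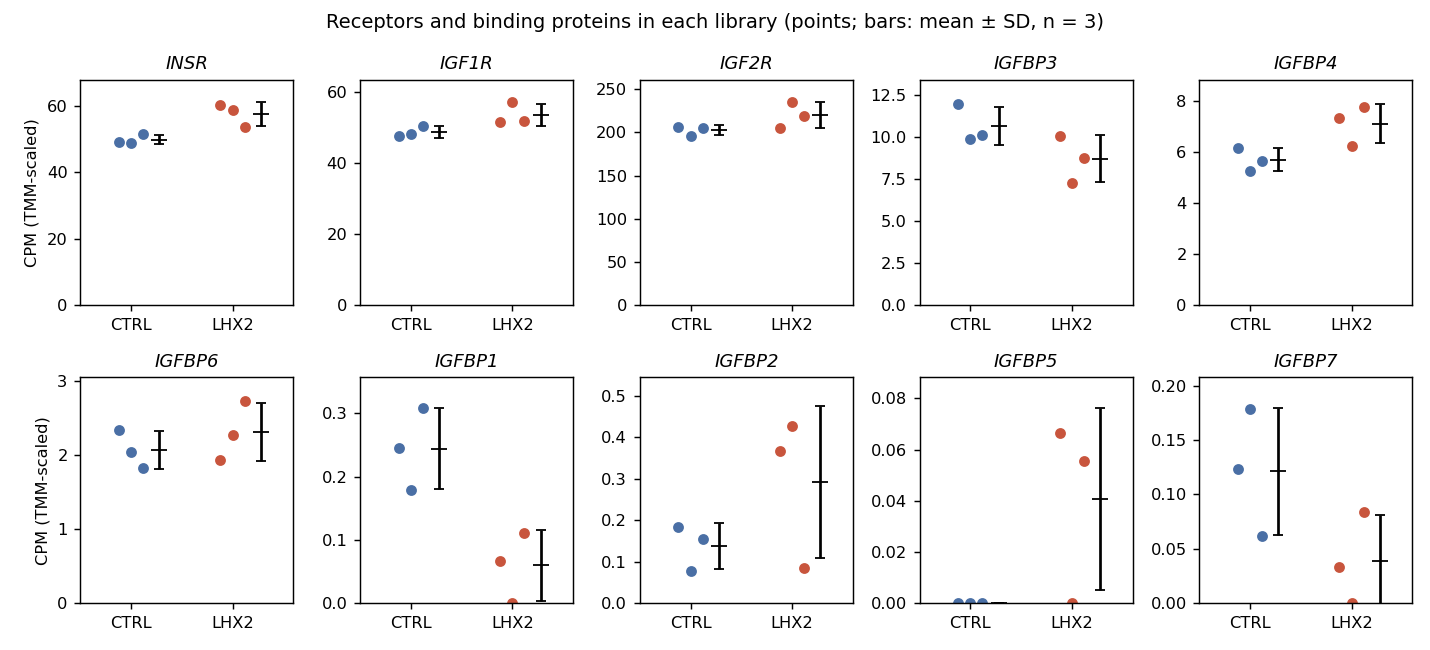
Level of each of the 10 members in CPM (y axis, starting at 0, own scale per gene) in the 3 CTRL (blue) and 3 LHX2 (red) libraries; points are libraries and bars the mean ± SD. INSR, IGF1R and IGFBP4 were higher in every LHX2 library than in any CTRL library, and IGFBP1, IGFBP2, IGFBP5 and IGFBP7 stayed under 0.5 CPM throughout.

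INSR, on chromosome 19 from 7112265 to 7294414 (GRCh38), encodes the insulin receptor. Its level was 49.2, 48.8 and 51.6 CPM in CTRL replicates 1 to 3, against 60.4, 58.7 and 53.6 CPM in LHX2 replicates 1 to 3. All LHX2 libraries lay above all CTRL libraries, with LHX2 replicate 3 the nearest to them. INSR rose 1.15-fold (95% interval 1.07 to 1.24; log2 fold change 0.21 ± 0.05, SE; n = 3 per group, edgeR adjusted p = 0.0067). The call held without any 1 of the 6 libraries, at log2 fold changes between 0.16 and 0.26. It did not hold once each library was corrected for a trend of its counts with the length and GC content of transcripts, which left 0.08 (edgeR adjusted p = 0.19).

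IGF1R, on chromosome 15 from 98648539 to 98964530, encodes the receptor that IGF1 and IGF2 share. It stood at 47.5, 47.9 and 50.5 CPM in CTRL replicates 1 to 3, against 51.5, 57.0 and 51.8 CPM in LHX2 replicates 1 to 3. The groups were apart, but LHX2 replicate 1 lay only just above CTRL replicate 3. The difference of 0.14 ± 0.05 on the log2 scale (SE, n = 3 per group; 95% interval 0.03 to 0.25) did not pass (edgeR adjusted p = 0.057). Leaving out CTRL replicate 3 (0.16, adjusted p = 0.048) brought it past the threshold, as did leaving out LHX2 replicate 3 (0.16, adjusted p = 0.037). With LHX2 replicate 2 left out it was smaller (0.09, adjusted p = 0.21). It changed sign to -0.06 when the length and GC trend was removed. IRAIN, a noncoding gene annotated within IGF1R, had 23 counts in CTRL and 13 in LHX2 in all, few beside the 5061 and 5150 of IGF1R.

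IGF2R, on chromosome 6 from 159969082 to 160111504, was the member with the most counts. Its level was 206, 196 and 206 CPM in CTRL replicates 1 to 3, against 205, 235 and 219 CPM in LHX2 replicates 1 to 3. LHX2 replicate 1 lay within the CTRL range, so the groups overlapped. The log2 difference of 0.12 ± 0.05 (SE, n = 3 per group; 95% interval 0.02 to 0.22) did not pass (edgeR adjusted p = 0.067), although it did without LHX2 replicate 1 (0.16, adjusted p = 0.016). With LHX2 replicate 2 left out it shrank to 0.07 (adjusted p = 0.27). It also changed sign when the length and GC trend was removed (-0.08).

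The 3 receptors have long messages, 8954 bases for INSR, 12235 for IGF1R and 14044 for IGF2R in the longest annotated transcript. Long transcripts as a class were higher in the LHX2 libraries: among the 1207 tested genes with a longest transcript of at least 8 kb the median log2 fold change was 0.10, and 32.4% were called higher and 8.86% lower. Among the 13036 shorter genes the median was 0.00, with 15.3% higher and 16.7% lower. After the trend was removed the long genes had a median of -0.03, with 18.8% higher and 24.4% lower. The 8 kb limit was chosen after the data were seen. Ratios between receptors within a library do not depend on how that library is scaled. They were taken from CPM without the length and GC correction, which can change them. That correction moved the log2 fold change of INSR from 0.21 to 0.08, IGF1R from 0.14 to -0.06 and IGF2R from 0.12 to -0.08. The IGF2R to IGF1R ratio of CPM was 4.16 ± 0.149 in CTRL and 4.11 ± 0.120 in LHX2 (SD, n = 3), and the INSR to IGF1R ratio was 1.03 ± 0.0101 and 1.08 ± 0.0812. LHX2 replicate 1, with a ratio of 1.17 of INSR to IGF1R, stood above the other libraries, which lay between 1.02 and 1.04.

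**Figure D2:**
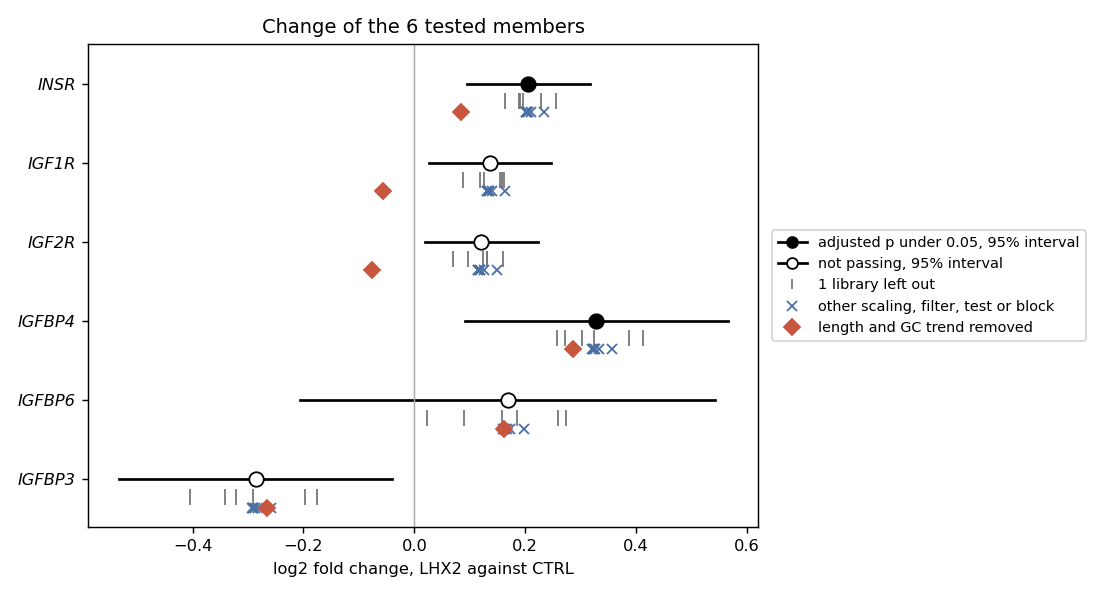
Log2 fold change, LHX2 against CTRL (x axis), of the 6 tested members, with 95% intervals and, under each, the values with 1 library left out (grey ticks), with other settings (blue crosses) and with the length and GC trend removed (red diamonds). IGF1R and IGF2R went from 0.14 and 0.12 to -0.06 and -0.08 when that trend was removed, and IGFBP4 went from 0.33 to 0.29.

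Of the binding proteins, IGFBP4, which inhibits IGF action until the protease PAPPA cleaves it, was the one that rose. Its gene lies on chromosome 17 from 40443450 to 40457725. It had 200, 206 and 183 counts in CTRL replicates 1 to 3, against 220, 190 and 279 in LHX2 replicates 1 to 3, or 6.15, 5.26 and 5.64 CPM against 7.32, 6.24 and 7.74 CPM. The lowest LHX2 library, replicate 2, lay just above the highest CTRL library, replicate 1. IGFBP4 rose 1.26-fold (95% interval 1.07 to 1.48; log2 fold change 0.33 ± 0.11, SE; n = 3 per group, edgeR adjusted p = 0.034). The call rested on the libraries used. It was lost without CTRL replicate 2 (0.27, adjusted p = 0.15) and without CTRL replicate 3 (0.32, adjusted p = 0.069), and also without LHX2 replicate 1 (0.30, adjusted p = 0.093) or, in turn, LHX2 replicate 3 (0.26, adjusted p = 0.12). DESeq2 gave 0.32 with an adjusted p of 0.064.

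IGFBP3, the main IGF carrier in blood together with the acid-labile subunit IGFALS, pointed the other way. Its gene lies on chromosome 7 from 45912245 to 45921272. The level was 11.96, 9.88 and 10.1 CPM in CTRL replicates 1 to 3, against 10.1, 7.29 and 8.77 CPM in LHX2 replicates 1 to 3. LHX2 replicate 1 lay within the CTRL range. The log2 difference of -0.29 ± 0.12 (SE, n = 3 per group; 95% interval -0.53 to -0.04) did not pass (edgeR adjusted p = 0.072). It passed without LHX2 replicate 1 (-0.40, adjusted p = 0.022) and was smaller without LHX2 replicate 2 (-0.18, adjusted p = 0.27).

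IGFBP4 and IGFBP3 differed in opposite directions, and their ratio was compared within each library. IGFBP4 had 0.514, 0.532 and 0.558 of the CPM of IGFBP3 in CTRL replicates 1 to 3, against 0.726, 0.856 and 0.883 in LHX2 replicates 1 to 3. The ranges were apart, and this ratio does not depend on how libraries were scaled. The pair was chosen after the values were seen, and the ratio is given as a description.

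IGFBP6, which binds IGF2 in preference to IGF1, lies on chromosome 12 from 53097667 to 53102340. It had 76, 80 and 59 counts in CTRL replicates 1 to 3, against 58, 69 and 98 in LHX2 replicates 1 to 3, and the ranges overlapped in CPM as well. The log2 difference was 0.17 ± 0.18 (SE, n = 3 per group; edgeR adjusted p = 0.5), and its 95% interval of -0.21 to 0.54 leaves room for no change and for a change as large as that of IGFBP4.

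The other 4 binding proteins had too few counts to be tested. IGFBP1, which the liver secretes under fasting, had 8, 7 and 10 counts in CTRL replicates 1 to 3, against 2, 0 and 4 in LHX2 replicates 1 to 3. Every LHX2 library was below every CTRL library, and the ratio of LHX2 to CTRL over the summed counts was 0.264. Its 95% interval (exact binomial), 0.0887 to 0.660, covers counting error only, because counts were pooled over the libraries of each group. The spread among libraries is left out of it. Reads were also counted without molecular identifiers, which the interval does not allow for. In a fit without a filter on low counts IGFBP1 stood at -1.90 on the log2 scale and did not pass (edgeR adjusted p = 0.052). IGFBP7, a low-affinity member of the family, had 4, 7 and 2 counts in CTRL and 1, 0 and 3 in LHX2 replicates 1 to 3, with overlapping ranges. Its interval for the ratio, 0.0805 to 1.097 around 0.339, included 1. Annotated IGFBP7 overlaps POLR2B, a gene with 28987 counts in CTRL and 23255 in LHX2, and a strand setting is not given in the sources used here, so the few reads of IGFBP7 are uncertain.

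IGFBP2, abundant in fetal liver, had 6, 3 and 5 counts in CTRL and 11, 13 and 3 in LHX2 replicates 1 to 3. LHX2 replicate 3 was as low as the CTRL libraries, and the ratio of 2.12 had an interval of 1.08 to 4.38 for counting error only. The fit without a filter gave IGFBP2 an adjusted p of 0.23 (edgeR). IGFBP5, a binding protein that also attaches to extracellular matrix, had 0 counts in all CTRL libraries, which allows a level of up to 0.0285 CPM over the group, and 2, 0 and 2 counts in LHX2 replicates 1 to 3. IGFBP2 (216632828 to 216664436) and IGFBP5 (216672105 to 216695549) lie 7.67 kb apart on chromosome 2, and IGFBP1 (45888488 to 45893660) lies 18.6 kb from IGFBP3 on chromosome 7. IGFBP7 lies on chromosome 4 from 57030773 to 57110385.

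Levels of different genes were compared as CPM per kb of the longest transcript. In CTRL the order was IGF2R (14.4 ± 0.409, SD, n = 3), INSR (5.57 ± 0.164), IGFBP3 (4.41 ± 0.473), IGF1R (3.97 ± 0.132), IGFBP4 (2.58 ± 0.203) and IGFBP6 (1.75 ± 0.221 CPM per kb). IGFBP1 followed at 0.148 ± 0.0392, IGFBP7 at 0.0848 ± 0.0410, IGFBP2 at 0.0313 ± 0.0126 and IGFBP5 at 0. Among neighbours in this order, IGFBP3 and IGF1R overlapped between libraries, as did IGFBP1 and IGFBP7, and the others were apart. In LHX2 the receptors came first, at 15.7 ± 1.06 for IGF2R, 6.43 ± 0.393 for INSR and 4.37 ± 0.256 CPM per kb for IGF1R. IGFBP3 (3.61 ± 0.581) and IGFBP4 (3.23 ± 0.354 CPM per kb) then overlapped each other, and IGFBP6 stood at 1.96 ± 0.336. IGFBP2 (0.0662 ± 0.0415), IGFBP1 (0.0358 ± 0.0338), IGFBP7 (0.0272 ± 0.0294) and IGFBP5 (0.00655 ± 0.00574 CPM per kb) overlapped their neighbours among these 4. The place of IGFBP3 depended on the length used. With the union of all annotated exons, 4571 bases in place of 2412, its level was 2.33 ± 0.250 in CTRL and 1.91 ± 0.307 CPM per kb in LHX2, under IGF1R and IGFBP4 in both groups on the mean.

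**Figure D3:**
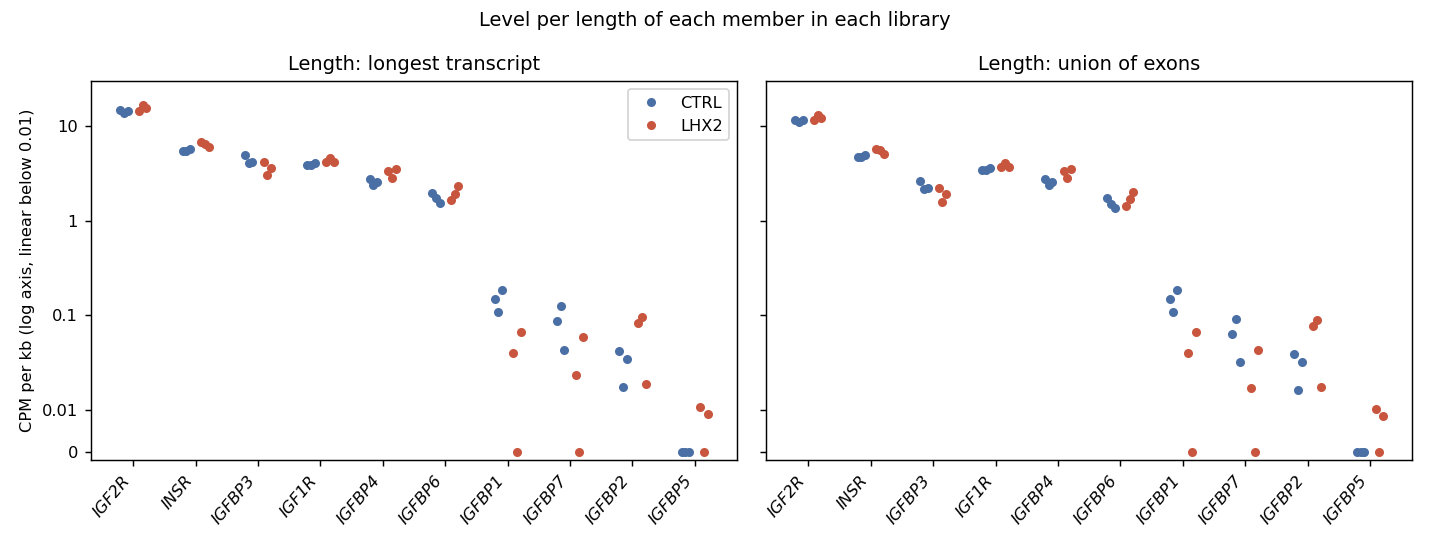
Level of each member in CPM per kb (y axis, logarithmic, linear below 0.01) in each CTRL (blue) and LHX2 (red) library, with the longest transcript (left) or the union of exons (right) as the length. IGF2R was highest in every library, and IGFBP1, IGFBP2, IGFBP5 and IGFBP7 lay below 0.2 CPM per kb.

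The summed level of the 7 binding protein transcripts did not separate the groups, at 9.01 ± 0.866 in CTRL and 8.94 ± 0.930 CPM per kb in LHX2 (SD, n = 3), but its makeup did. IGFBP3 made up 49.5%, 48.3% and 48.9% of it in CTRL replicates 1 to 3, against 44.9%, 38.4% and 37.8% in LHX2 replicates 1 to 3. IGFBP4 made up 27.9%, 28.2% and 29.9% in CTRL and 35.8%, 35.99% and 36.6% in LHX2. Neither pair of ranges overlapped, and the shares are a description with no test. Both are parts of the same sum, so a higher share of IGFBP4 lowers that of IGFBP3. They largely restate the IGFBP4 to IGFBP3 ratio given above and are not separate results. IGFBP6 held 19.4% ± 1.26 in CTRL and 22.02% ± 3.82 in LHX2, with overlap. With the union of exons as the length, IGFBP4 was the largest share in both groups, 38.7% ± 1.33 in CTRL and 46.3% ± 0.540 in LHX2, and IGFBP3 followed at 34.8% ± 0.502 and 27.3% ± 3.20. The direction of both differences was the same with either length. Each length is a constant per gene across libraries, so this sameness was largely fixed in advance and adds no separate support.

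**Figure D4:**
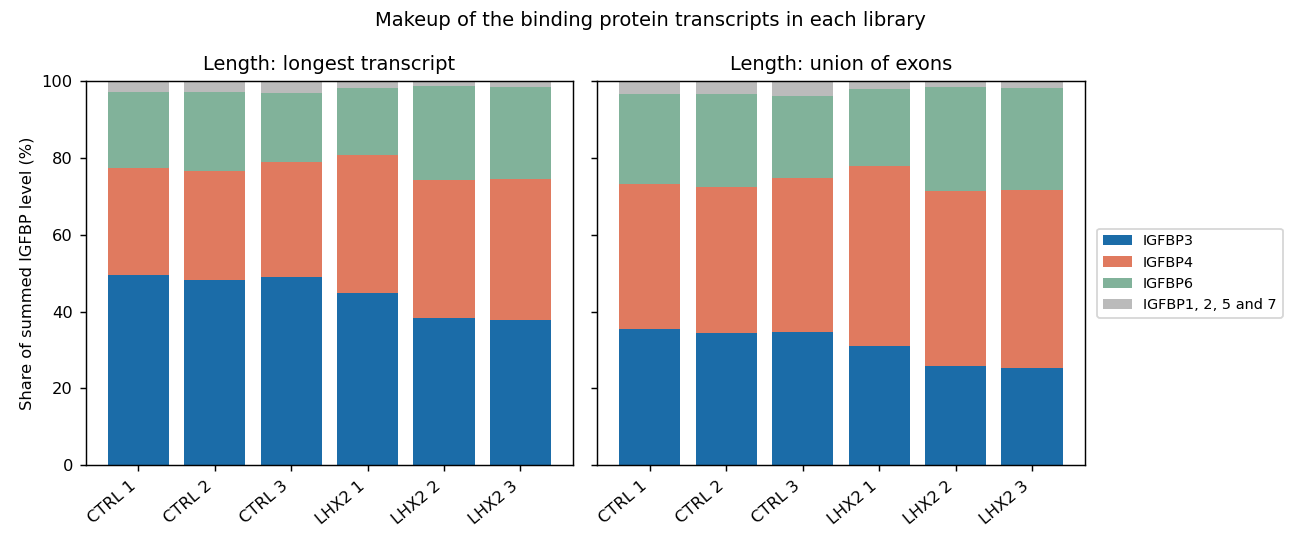
Share (%) of each binding protein in the summed IGFBP level per kb (stacked bars, 1 per library), with the longest transcript (left) or the union of exons (right) as the length. The IGFBP4 share was higher and the IGFBP3 share lower in all 3 LHX2 libraries than in any CTRL library in both panels.

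RefSeq promoter entries (GRCh38.p14) matched 8 of the 10 members, and IGFBP1 and IGFBP7 had none. Over the 250 bases before the start site, TAATTA, a core that LIM-homeodomain factors bind, was found on either strand in 4.35% of the 35116 promoter entries and in none of the 10 entries of the members. CAAAACAA, part of insulin response elements, was in 1.46% of all entries and likewise in none of theirs. GTAAACA, a forkhead core, was in 2.98% of all entries and in that of IGFBP6 alone among the members. A match describes letters in this window and says nothing about binding.

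The promoters of both members that rose, and of IGFBP3 as the tested member with a lower level, are shown 5′ to 3′ on the strand of the gene, ending at the base before the start site. Capitals mark TATAAA and GGGCGG on either strand; GGGCGG, the GC box bound by SP1, was added to the search after the data were seen. The windows are chr19:7294415-7294664 (minus strand) for INSR, chr17:40443200-40443449 (plus strand) for IGFBP4 and chr7:45921273-45921522 (minus strand) for IGFBP3.
INSR: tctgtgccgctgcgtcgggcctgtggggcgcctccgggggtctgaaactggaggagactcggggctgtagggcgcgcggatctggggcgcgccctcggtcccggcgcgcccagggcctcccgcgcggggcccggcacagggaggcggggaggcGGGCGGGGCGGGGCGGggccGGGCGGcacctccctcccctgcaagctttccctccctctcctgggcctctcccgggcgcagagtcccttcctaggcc
IGFBP4: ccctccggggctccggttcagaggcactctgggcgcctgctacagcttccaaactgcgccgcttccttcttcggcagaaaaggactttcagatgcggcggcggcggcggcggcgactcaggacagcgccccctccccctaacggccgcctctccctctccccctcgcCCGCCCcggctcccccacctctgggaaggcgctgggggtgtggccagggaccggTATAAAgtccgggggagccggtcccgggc
IGFBP3: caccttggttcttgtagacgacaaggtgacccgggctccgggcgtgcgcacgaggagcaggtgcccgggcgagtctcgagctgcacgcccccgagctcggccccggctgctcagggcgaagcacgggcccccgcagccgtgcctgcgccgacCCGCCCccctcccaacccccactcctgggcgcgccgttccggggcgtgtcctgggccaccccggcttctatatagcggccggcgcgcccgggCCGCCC

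INSR held 4 GGGCGG matches, some of which overlap each other, and no TATAAA. IGFBP4 held 1 TATAAA, which begins 29 bases before the start site, and 1 GGGCGG, and IGFBP3 held 2 GGGCGG. Of all entries 10.7% held TATAAA and 42.6% GGGCGG. GC content was 78.4% for INSR, 71.6% for IGFBP4 and 76.0% for IGFBP3, above the median of 58.0% over all entries. The 2 promoters that belong to members that rose thus differed in the counts of both motifs.

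The pattern of IGFBP4 over the 6 libraries was compared with 10094 other genes of at least 5 CPM, as the distance between log2 CPM values set against the CTRL mean. The nearest were DMPK (distance 0.126; log2 fold change 0.32), PTOV1 (0.132; 0.35) and C21orf58 (0.141; 0.34). These genes were picked for nearness among 10094, so fold changes close to that of IGFBP4 follow from the choice and show no link to it. No member fell, so no such comparison was made for a fall.

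The ligands and cofactors that the members bind were mostly scarce, with 10 of 13 listed genes too low to be tested, among them INS, IGFALS and PAPPA. IGF2, the fetal growth factor bound by all 3 receptors, had 12.9, 15.9 and 16.1 CPM in CTRL replicates 1 to 3, against 28.4, 27.1 and 22.8 CPM in LHX2 replicates 1 to 3. The groups were well apart, and IGF2 rose 1.74-fold (95% interval 1.502 to 2.005; n = 3 per group, edgeR adjusted p = 2e-05). STC2, an inhibitor of PAPPA, fell from 87.4 ± 4.89 CPM to 63.97 ± 0.779 CPM (SD, n = 3), a log2 fold change of -0.45 (edgeR adjusted p = 3.9e-06). IGF1 had 7 to 15 counts per library and did not pass (0.45 ± 0.38, SE; n = 3 per group, edgeR adjusted p = 0.4).

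Among substrates and adaptors that the receptors phosphorylate or recruit, 2 of 11 tested genes rose, 1 fell and 8 did not pass. For this and each list below, the shares over all genes tested were 16.6% higher and 15.8% lower, and no list was tested as a set. IRS2, an insulin receptor substrate, had 3.90, 3.37 and 3.42 CPM in CTRL replicates 1 to 3, against 13.1, 12.6 and 11.7 CPM in LHX2 replicates 1 to 3. The rise was larger than that of INSR or IGFBP4: IRS2 rose 3.50-fold (95% interval 3.02 to 4.06; log2 fold change 1.81 ± 0.10, SE; n = 3 per group, edgeR adjusted p = 4.3e-09). IRS1, its close relative, differed by -0.08 ± 0.04 (SE, n = 3 per group, edgeR adjusted p = 0.15), and it was called lower at -0.23 (adjusted p = 0.00029) when the length and GC trend was removed. The docking protein gene GAB2 (0.23) rose, though not with that trend removed (0.13, adjusted p = 0.079), and RACK1, a scaffold that binds IGF1R, fell (-0.23).

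Of 13 tested inhibitors of the receptors or their signalling 4 rose, 2 fell and 7 did not pass, beside 16.6% higher and 15.8% lower over all genes. SOCS3, a feedback inhibitor induced by cytokines and insulin, rose 1.89-fold from few counts (18, 18 and 24 in CTRL against 37, 28 and 41 in LHX2 replicates 1 to 3; edgeR adjusted p = 0.015). Its call was lost without CTRL replicate 1 (0.89, adjusted p = 0.053), without CTRL replicate 2 (0.76, adjusted p = 0.086) and, among the LHX2 libraries, without replicate 1 (0.83, adjusted p = 0.055). The ubiquitin ligase gene CBLB (log2 fold change 0.43) and GRB14 (0.21), which binds the kinase domain of INSR, also rose. ENPP1, a membrane enzyme that inhibits INSR, fell from 123 ± 5.07 CPM to 100.02 ± 2.67 CPM (SD, n = 3), or by 0.30 on the log2 scale (edgeR adjusted p = 8e-05).

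Downstream, 6 of 28 tested genes of the PI3K, AKT and mTOR pathway rose, 3 fell and 19 did not pass, with a median log2 fold change of 0.04. AKT1, the kinase that relays the receptors' signal, stood at 30.8 ± 1.88 CPM in CTRL and 39.8 ± 0.703 CPM in LHX2 (SD, n = 3) and rose 1.29-fold (log2 fold change 0.37, edgeR adjusted p = 0.00014), or by 0.17 (adjusted p = 0.014) with the length and GC trend removed. PHLPP2, a phosphatase that acts on AKT, rose by 0.31 and the transcription factor gene FOXO3 by 0.27 on the log2 scale, the latter by 0.18 (adjusted p = 0.0071) with that trend removed. FOXO1, the insulin-inhibited factor that drives IGFBP1 in liver, fell by 0.26 (edgeR adjusted p = 0.043). That call was lost with library totals as the scaling (-0.23) and without any 1 library other than LHX2 replicate 1 (-0.28 to -0.20).

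Transcripts that FOXO factors induce moved both ways: 5 of 18 tested rose, 1 fell and 12 did not pass, with a median of 0.08. IRS2 belongs here as well, and TRIB1 (0.36) and the pro-apoptotic BCL2L11 (0.28) rose while KLF15 (-0.48) fell. The gluconeogenic genes PCK1 and G6PC were too low to be tested, as was IGFBP1. In the mannose 6-phosphate sorting route that IGF2R serves, SORT1, the sorting receptor sortilin, rose by 0.34, and GNPTAB (-0.14), which makes the mannose 6-phosphate tag, and the adaptor gene GGA2 (-0.12) fell, with 10 of 13 not passing. The calls of the last 2 were weak: GNPTAB was lost without CTRL replicate 2 (-0.14, adjusted p = 0.055) or CTRL replicate 3 (-0.12, adjusted p = 0.054), and GGA2 without any 1 library other than LHX2 replicate 3 and with DESeq2 (adjusted p = 0.053). Over the 6 lists, 18 of 85 tested genes rose (21.2%) and 10 fell (11.8%), beside 16.6% and 15.8% of all genes.

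**Figure D5:**
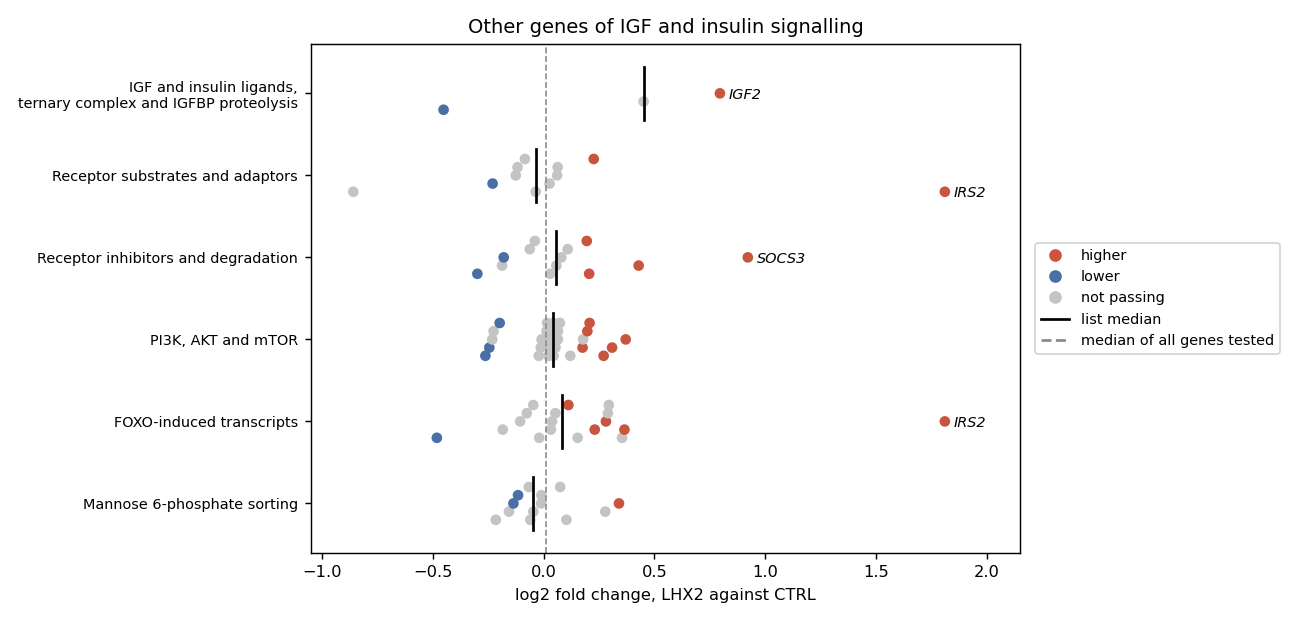
Log2 fold change, LHX2 against CTRL (x axis), of each tested gene in 6 lists of IGF and insulin signalling (rows), coloured by call, with the list median (black bar) and the median of all genes tested (dashed line). IRS2 at 1.81, in 2 lists, stands to the right of all other genes. The list medians lie between -0.05 and 0.08, except 0.45 for the ligand list. That list has 3 tested genes, and its median is the value of IGF1, which did not pass.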

How the data were processed

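Polyadenylated RNA of 3 CTRL and 3 LHX2 libraries was measured. The authors counted reads with featureCounts 2.0.0 after alignment tools TopHat2 2.1.1 with Bowtie2 2.3.5.1 (build GRCh38), and SAMtools 1.9 and bcl2fastq 2.20 are also listed, per the submitters' processing notes. The deposited values were raw counts per gene, and CPM values here are those counts divided by TMM-scaled library totals. Neither annotation nor strand setting is given in the sources used. The column of CTRL replicate 1, whose name is written in another form, was matched by its final number.

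Genes were filtered with edgeR 4.0.16 filterByExpr (a minimum count of 10, a total of 15 and a proportion of 0.7), scaled with TMM factors (0.985 to 1.02) and tested with the quasi-likelihood F-test, group being the single term, with Benjamini-Hochberg adjustment across all 14533 genes (threshold 0.05). Standard errors come from the F statistic. Lengths and GC content are those of the longest GENCODE 29 transcript (26905 of 28265 genes matched); positions and promoters are from RefSeq. Alternatives were RLE factors, library totals, other filters, DESeq2 1.42.0, a replicate block, each library left out, a loess length and GC correction (span 0.3, centred per library) and exon-union lengths. The test was run on simulated counts for this comparison (14372 genes), of which 14175 were set to no change. It recovered 25 of 50 genes with a 1.2-fold change and 40 of 49 with a 1.5-fold change. Of the 14175 unchanged genes 16 were called. In the data 32.5% of genes were called, and recovery with that many changed genes was not tested. R 4.3.3, Python 3.11.15 and scipy 1.17.1 were used.

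Members, lists and alternatives were chosen with earlier results of these data known. Named were all members, up to 4 called genes per list with the largest changes and no overlap, IGF1, IGF2, IRS1, IRS2, FOXO1, LHX2 and the 3 genes nearest in pattern to the member with the largest called rise. INS, IGFALS, PAPPA, IRAIN, POLR2B, PCK1, G6PC and the cell type markers were named outside that rule. Protein sequences were not used here.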

Additional observations from a re-analysis of the deposited data

How the results depend on the processing

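The count of members that rose, 2, was 4 with library totals alone (IGF1R and IGF2R added). It was 3 with no low-count filter (IGF2R added) and 3 with a filter of 1 CPM in 3 libraries (IGF1R added). The count was 1 with DESeq2 and with the replicate block (INSR), and 1 with the length and GC trend removed (IGFBP4). It ran from 1 to 3 when 1 library was left out. The 3 included IGFBP2, which without LHX2 replicate 3 entered the test only through its LHX2 counts. No member was called lower, but 1 was (IGFBP3) with the replicate block and with no low-count filter, and 0 to 1 without 1 library. IGF1R (-0.0557) and IGF2R (-0.0755) changed sign when the length and GC trend was removed. All genes gave 1850 to 2316 higher and 1699 to 2251 lower without 1 library, and 2234 and 2870 with the trend removed (main 2415 and 2301); library totals alone gave 2800 and 1886. The cause of these shifts was not tested.

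With the trend removed, substrates and adaptors had 1 higher and 4 lower, inhibitors 5 lower, PI3K, AKT and mTOR 8 lower, FOXO-induced transcripts 2 lower and mannose 6-phosphate sorting 4 lower. The lower PI3K, AKT and mTOR count was 1 with library totals or the replicate block and 5 without a filter. In mannose 6-phosphate sorting 1 was lower with library totals, the block or DESeq2, and 2 were higher without a filter. Without 1 library the ranges were 1 to 2 lower for substrates and adaptors, 1 to 3 lower and 3 to 5 higher for inhibitors, 1 to 4 lower for PI3K, AKT and mTOR, 3 to 5 higher for FOXO-induced transcripts, and 1 to 2 higher and 0 to 3 lower for mannose 6-phosphate sorting.

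With the union of exons, IGFBP3 made up 34.8% of the binding protein level in CTRL and 27.3% in LHX2, IGFBP4 38.7% and 46.3%, and IGFBP6 22.9% in CTRL. Replicate numbers did not pair the samples (correlation of same-numbered deviations -0.20 to -0.06); with the replicate block 1936 genes were higher and 1832 lower, and IGFBP4 had an adjusted p of 0.053, IGFBP3 of 0.046 and INSR of 0.027 in edgeR. The block also ended the calls of FOXO1 (-0.27, adjusted p = 0.059) and GGA2 (-0.12, adjusted p = 0.08). IGFBP1, IGFBP2, IGFBP5 and IGFBP7 had too few counts to pass the filter.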
